A study of Mus musculus with 9 samples.

Results

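The heat shock proteins and co-chaperones described here are the protein-coding mouse genes whose symbols begin with Hspa, Hspb, Hspd, Hspe or Hsph and a digit, with Hsp90, or with Dnaja, Dnajb or Dnajc, together with Tcp1 and the genes named Cct or Bag followed by a digit. The rule uses names only. It found 88 genes among the 37816 of the count table, and 12 further rows whose symbols fit were left out because they were not protein-coding. The 88 genes comprised 13 Hspa, 8 Hspb, 3 Hsp90, 2 Hspd or Hspe, 1 Hsph, 4 Dnaja, 13 Dnajb, 28 Dnajc, 10 Cct or Tcp1 and 6 Bag genes.

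Molecular chaperones bind unfolded or partly folded proteins and keep them from aggregating. Hsp70 proteins (the Hspa genes) hold and release clients in a cycle of ATP hydrolysis, which J-domain proteins (Dnaja, Dnajb, Dnajc) start and nucleotide exchange factors (Bag, Hsph) complete. Hsp90 matures signalling proteins, the CCT ring folds actin and tubulin, and the small heat shock proteins (Hspb) bind clients without ATP. Misfolded protein in the cytosol induces many of these genes through the transcription factor HSF1, misfolded protein in the endoplasmic reticulum induces others through the unfolded protein response, and several chaperones are known to act on polyglutamine proteins such as ataxin-3, the protein altered in spinocerebellar ataxia type 3 (SCA3).

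RNA of the mouse cerebellum was sequenced in 9 libraries, 3 in each of 3 groups. All mice had the C57BL/6 background and carried a human ATXN3 gene on a yeast artificial chromosome beside the mouse gene, with 15 CAG repeats in the 15Q control group and 84 in the 84Q and 84Q+IGF1 groups. The 84Q+IGF1 mice received 50 mg/kg of IGF1, insulin-like growth factor 1, by weekly intraperitoneal injection from 9 to 18 months of age, and tissue was taken at 18 months in all 3 groups. The sample labels call the 15Q and 84Q mice untreated, whereas the protocol gives them injections of PBS. The design asks which genes differ with the expanded repeat (84Q against 15Q) and with the treatment (84Q+IGF1 against 84Q). The 84Q+IGF1 group was also set against 15Q, and both 84Q groups, 6 libraries, against 15Q. These comparisons share libraries, so they are not independent of each other. The study's methods treat each library as 1 mouse, so the p-values measure the spread between 3 mice in a group.

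Libraries held 17482654 to 58269196 counted reads. Levels are given as CPM, counts per 1000000 of the normalized library total, and levels of different genes are set against each other only as TPM, which also divides by exon length and sums to 1000000 in each library. Markers of granule cells summed to 4499 to 5280 CPM and those of Purkinje cells to 5540 to 6261 CPM over the 9 libraries, with no marker of either at 0, and 1 of 5 Purkinje markers was higher in 84Q against 15Q. Of 5 markers of astrocytes and Bergmann glia, which summed to 3177 to 4065 CPM, 2 were lower with both 84Q groups. Those of microglia summed to 89.1 to 97.7 CPM in 15Q, 101 to 124 CPM in 84Q and 93.2 to 99.5 CPM in 84Q+IGF1, with 1 of 5 higher in 84Q against 15Q, and the part of these cell types in the values below was not tested. Markers of the choroid plexus, an epithelium beside the cerebellum, stood far apart in 3 libraries: their sum was 450, 24.5 and 433 CPM in the 15Q libraries, 28.7, 966 and 13.3 CPM in the 84Q libraries, and 16.7, 17.1 and 43 CPM in the 84Q+IGF1 libraries. Without the 3 libraries of 433 CPM or more, 15Q has 1 library left, and the numbers of genes that passed against 15Q are also given without them. Markers of skeletal muscle, epidermis and intestine were higher in 15Q than in both 84Q groups, as given beside the gene they move with. Fold changes also moved with exon length. Among the genes in the upper part by level, the median log2 fold change of 84Q against 15Q went from 0.13 in the shortest of 5 equal bins to -0.09 in the longest, and that of 84Q+IGF1 against 15Q from 0.10 to -0.05.

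Chaperone transcripts were abundant in this tissue, and a few genes supplied a large part of them. The 88 genes together made up 0.889% of all TPM, and the 3 highest held 41.8% of that sum. Hsp90ab1, the constitutive cytosolic Hsp90, was highest at 1572 TPM on average over the 9 libraries and ranked 27 among all genes. Hspa8, the constitutive Hsp70 known as Hsc70, followed at 1375 TPM and ranked 38, and Hsp90aa1, the inducible cytosolic Hsp90, had 767 TPM and ranked 89. In all, 18 genes were above 100 TPM, 72 were above 10 TPM and 11 were under 1 TPM.

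Within each family the sum leaned on a leading gene to a different degree. Hspa8 held 61.7% of the TPM of the Hspa genes, and Hspa9, the mitochondrial Hsp70, came next at 234 TPM. Hsp90ab1 held 61.5% of the Hsp90 sum, and Hsp90b1, the Hsp90 of the endoplasmic reticulum, had 219 TPM. Hspd1 and Hspe1, which form the mitochondrial chaperonin and its lid, had 214 and 68.3 TPM. Hsph1, a large Hsp70 relative that exchanges nucleotides, had 59.9 TPM.

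Among the J-domain proteins, Dnaja2 held 52.3% of its family at 211 TPM, ahead of Dnaja1 at 86.4 TPM. The Dnajb and Dnajc families were spread more evenly. Dnajb2, a neuronal protein that carries ubiquitylated clients, led the first with 18.6% at 97.2 TPM and Dnajb6 followed at 82.7 TPM. Dnajc5, the cysteine string protein of synaptic vesicles, led the second with 14.9% at 197 TPM, and Dnajc6, the auxilin that uncoats clathrin vesicles, followed at 165 TPM. Cct8 led the CCT genes with only 19%, since the 8 subunits of the ring lie close together. Bag6, which handles proteins bound for membranes, and Bag1 led the Bag genes at 187 and 184 TPM. Hspb8 led the small heat shock proteins at 35.5 TPM, followed by Hspb1 at 18.6 TPM. The lowest gene of each family reached 39 TPM for Dnaja4 and 10.1 TPM for Bag2, against 4.16 TPM for Hspa1l, 0.432 TPM for Dnajb7, 0.332 TPM for Hspb9, 0.0689 TPM for Cct8l1 and 0.00945 TPM for Dnajc5g.

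**Figure D1:**
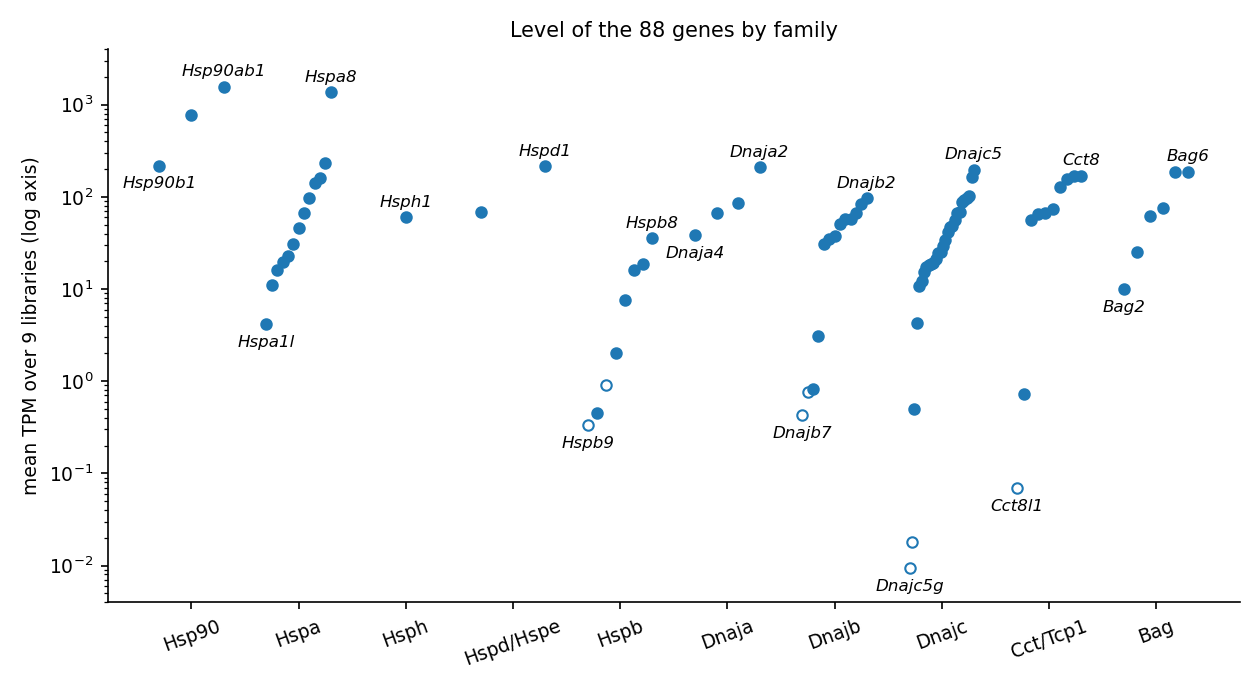
Mean TPM of the 88 genes over 9 libraries, by family, on a log axis, where each circle is a gene and open circles are the 7 genes too low to be tested. The highest points are Hsp90ab1 (1572 TPM), Hspa8 (1375 TPM) and Hsp90aa1 (767 TPM), and the CCT subunits of the ring form a tight group.

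A level of 3 counts, taken as the floor, corresponds to 0.0513 to 0.171 CPM. Of the 88 genes, 79 had at least 3 counts in every library. A filter that asks for enough counts in at least 3 libraries, of any group, kept 81 for testing. The other 7 were Cct8l1, Dnajb7, Dnajb8, Dnajc5b, Dnajc5g, Hspb2 and Hspb9, none above 0.484 CPM or 16 counts in any library. Tests were run over all 19353 genes that passed the filter with edgeR's quasi-likelihood test, and p-values were adjusted by the Benjamini-Hochberg method over all of them. A gene passed at an adjusted p under 0.1, and was called when its fold was also at least 1.5, the thresholds of the study.

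Levels of the well-expressed genes varied little between libraries. Over the 65 tested genes above 10 CPM in every library, the highest library exceeded the lowest by a median of 1.22-fold, and 60 of the 65 stayed under 1.5-fold. The widest ranges were those of Hspb8 at 1.87-fold, the stress-inducible pair Hspa1b and Hspa1a at 1.77- and 1.7-fold, Dnajb14 at 1.62-fold and Bag1 at 1.53-fold. The standard error of a log2 fold change had a median of 0.07 over these genes. The 95% interval stayed within 1.5-fold in both directions for 64 of the 65 in every comparison, the exception being Dnajb14 in 84Q against 15Q and Hspb8 in the other comparisons. Among all 81 tested genes the interval did so for 71 in 84Q against 15Q, 73 in 84Q+IGF1 against 15Q and 70 in 84Q+IGF1 against 84Q.

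In 84Q against 15Q, most chaperone genes differed little, and few passed the test. Hspa8, Hspa5 and Tcp1 rose and Dnajb14 and Dnajc22 fell, so 5 of 81 passed at any fold (6.17%), beside 4.8% of all genes tested. Only Dnajc22 was called at a fold of at least 1.5 (1.23%), beside 2.14% of all genes. The fold change was positive for 47 of the 81 (58%), beside 49.7% of all genes, and the median log2 fold change was 0.03, beside -0.00. The 84Q and 15Q libraries did not overlap for 17 of the 81 (21%), beside 25.4% of all genes. All of these shares lie near or below those of all genes, apart from the share of positive fold changes. Without 15Q replicate 2 or 3 or 84Q replicate 3, only Dnajc22 passed. Over all genes, 209 of 19746, 223 of 19717 and 324 of 19923 passed in these fits, in place of 928 of 19353.

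The genes that passed in 84Q+IGF1 against 15Q were again Hspa8, Hspa5, Tcp1, Dnajb14 and Dnajc22, in the same directions. They were 6.17% of the 81, beside 3.67% of all genes, and Dnajc22 was again the only called gene (1.23%, beside 2.25%). The fold change was positive for 55 of the 81 (67.9%), beside 48.9% of all genes, with a median log2 fold change of 0.06, beside -0.01. Libraries did not overlap for 26 of the 81 (32.1%), beside 24.7%, and in 19 of these the 84Q+IGF1 libraries were the higher (23.5%, beside 11.7%). Without 15Q replicate 2 or 3 or 84Q+IGF1 replicate 1 only Dnajc22 passed, and without 84Q+IGF1 replicate 3 the number was 3. Over all genes, 271 of 19746, 261 of 19717, 341 of 19943 and 760 of 19844 passed in these fits, in place of 711 of 19353. Both comparisons use the same 15Q libraries, so the shared genes are not a second observation. With both 84Q groups against 15Q, Dnajc13 passed in addition, which made 6 of 81 (7.41%), beside 9.75% of all genes, and Dnajc22 was the only called gene, beside 3.51%. That number was 3 without 15Q replicate 2, 2 without 15Q replicate 3, 13 without 84Q replicate 2 and 10 without 84Q+IGF1 replicate 2, and over all genes it became 425 of 19746, 351 of 19717, 2304 of 19906 and 1964 of 19913. Without the 3 libraries of high choroid plexus markers, 0 of the 81 passed in either 84Q group against 15Q, where 94 and 193 of 20443 genes passed in all, and only Dnajc22 did with both groups together (adjusted p = 0.0967). With 15Q at 1 library, the log2 fold changes were 0.31 for Hspa8, 0.30 for Hspa5, 0.26 for Tcp1 and -0.36 for Dnajb14 in 84Q, and 0.27, 0.41, 0.22 and -0.31 in 84Q+IGF1, each in the same direction as with all libraries.

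**Figure D2:**
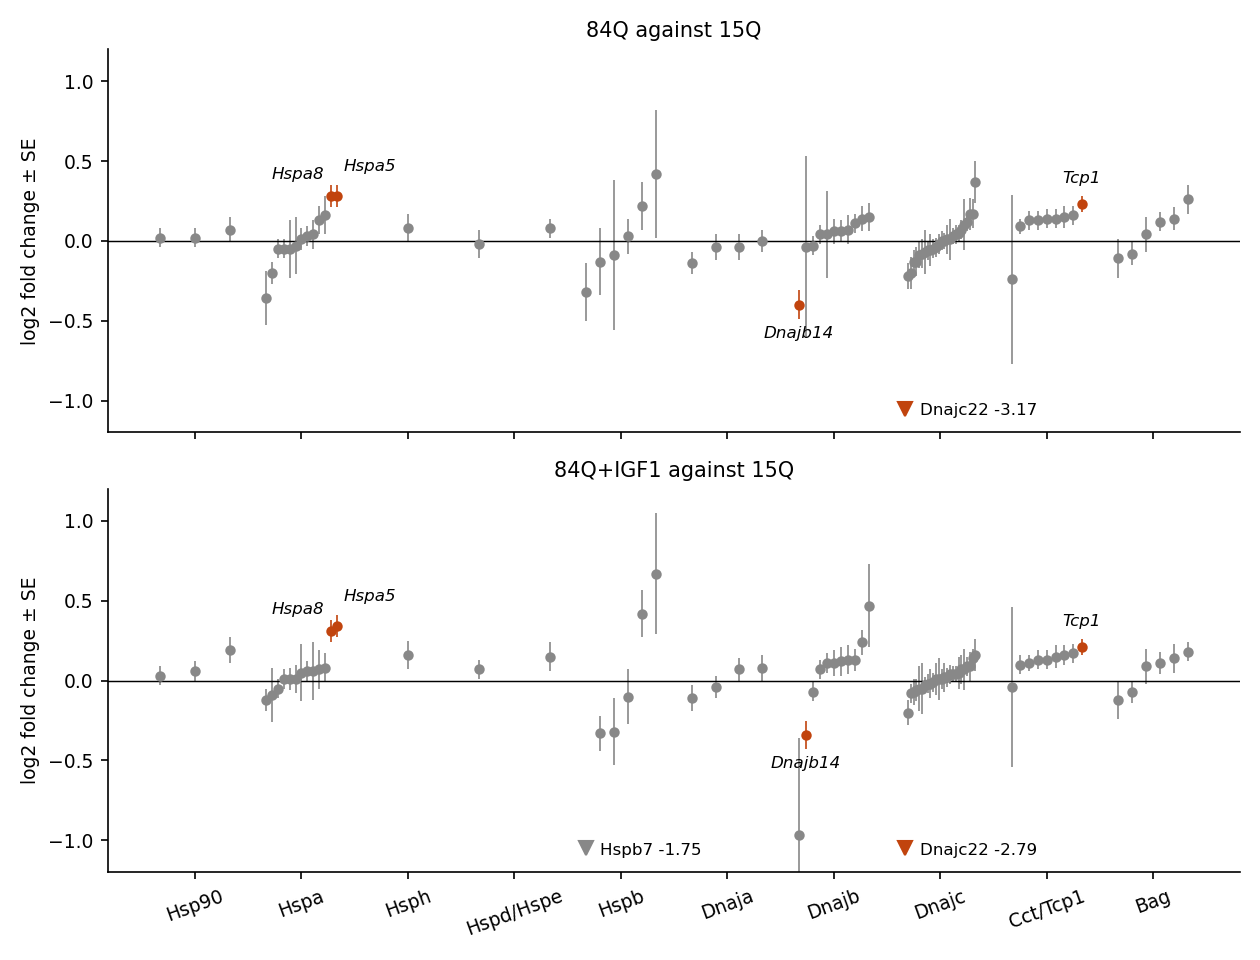
Log2 fold change, with its standard error as a bar, of the 81 tested genes by family, for 84Q (top) and 84Q+IGF1 (bottom) against 15Q, with genes at an adjusted p under 0.1 in red. Most points lie close to 0 and triangles mark values beyond the axis, among them Dnajc22 at -3.17 and -2.79 and Hspb7 at -1.75.

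Hspa8 was the most abundant gene that rose. It encodes the constitutive Hsp70 of the cytosol, which acts in folding, in uncoating clathrin vesicles and in chaperone-mediated autophagy, and lies at chr9:40800984-40810087 on the plus strand (GRCm38, ENSMUSG00000015656.17). Its levels were 1267, 1330 and 1275 CPM in 15Q, 1613, 1414 and 1678 CPM in 84Q, and 1640, 1589 and 1567 CPM in 84Q+IGF1. Every library of both 84Q groups lay above the 3 of 15Q. The mean went from 1290 ± 34.3 CPM (SD, n = 3) to 1568 ± 138 CPM in 84Q, a log2 fold change of 0.28 ± 0.07 (SE, adjusted p = 0.0609), and to 1599 ± 37.7 CPM in 84Q+IGF1, 0.31 ± 0.07 (adjusted p = 0.0425). Since the tissue is a mixture of cells, a difference in the number of cells of a type and a difference in RNA per cell cannot be told apart, here and below. The 84Q value did not pass without either 15Q replicate 2 or 3 or 84Q replicate 1 or 3 (adjusted p from 0.105 to 0.219), nor the 84Q+IGF1 value without 15Q replicate 2 or 3 or 84Q+IGF1 replicate 1 (0.105 to 0.15). With both 84Q groups together it was 0.30 ± 0.06 (adjusted p = 0.0202) and passed without any single library. Of the 31-base words of its exons, 43.5% also occur in other annotated genes, foremost Gm15459 with 38.6%, so its level is uncertain to the extent that reads were split between copies.

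Because Hspa8 leads its family, the Hspa sum moved with it. The summed TPM of the 13 Hspa genes was 2016, 2113 and 2085 in 15Q, 2336, 2100 and 2349 in 84Q, and 2332, 2347 and 2376 in 84Q+IGF1. The 84Q+IGF1 libraries all lay above 15Q, whereas 84Q replicate 2 lay within the 15Q range. The ratio to the 15Q mean was 1.09 for 84Q and 1.14 for 84Q+IGF1, while the Hsp90 sum had ratios of 0.982 and 1.02, or 1.02 and 1.04 by CPM. Among the other Hspa genes, Hspa9 had log2 fold changes of -0.05 in both 84Q groups, and Hspa4, an exchange factor of the Hsph type, -0.05 and 0.06.

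Hspa5, also called BiP, rose by a similar factor. It is the Hsp70 of the endoplasmic reticulum and the best known target of the unfolded protein response, and lies at chr2:34771970-34777547 on the plus strand (ENSMUSG00000026864.13). Its levels were 139, 126 and 128 CPM in 15Q, 157, 167 and 152 CPM in 84Q, and 185, 158 and 154 CPM in 84Q+IGF1. No library of either 84Q group overlapped with 15Q. The mean went from 131 ± 7.15 CPM (SD, n = 3) to 158 ± 7.69 CPM, a log2 fold change of 0.28 ± 0.07 (SE, adjusted p = 0.0838), and to 166 ± 17 CPM with IGF1, 0.34 ± 0.07 (adjusted p = 0.041). The 84Q value did not pass without any single library of 15Q replicate 2 or 3 or of 84Q (adjusted p from 0.107 to 0.272), nor with a trend in exon length removed (0.23, adjusted p = 0.129), nor with Xist, a transcript of the inactive X chromosome, as a covariate (0.25, adjusted p = 0.161). The 84Q+IGF1 value did not pass without 15Q replicate 2 or 3 or 84Q+IGF1 replicate 1 (0.104 to 0.17).

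The promoter of Hspa5 is shown because it holds the sequence through which the unfolded protein response is known to act, together with those of 2 other reticulum genes here, Hsp90b1 and Dnajc3, and of Creld2, a reticulum gene outside the families. Each is the 250 bases before the transcript start, read 5′ to 3′ on the gene's strand from RefSeq (GRCm38.p6). Capitals mark the endoplasmic reticulum stress element (ERSE) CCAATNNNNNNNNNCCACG, searched on both strands after the values were seen. The windows are chr2:34771840-34772089 (plus) for Hspa5, chr10:86705445-86705694 (minus) for Hsp90b1, chr14:118937682-118937931 (plus) for Dnajc3 and chr15:88819396-88819645 (plus) for Creld2.
Hspa5: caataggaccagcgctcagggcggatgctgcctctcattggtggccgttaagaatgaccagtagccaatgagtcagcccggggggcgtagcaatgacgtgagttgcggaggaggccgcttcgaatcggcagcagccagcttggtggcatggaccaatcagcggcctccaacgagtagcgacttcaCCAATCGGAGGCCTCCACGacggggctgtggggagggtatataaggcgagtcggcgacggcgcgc
Hsp90b1: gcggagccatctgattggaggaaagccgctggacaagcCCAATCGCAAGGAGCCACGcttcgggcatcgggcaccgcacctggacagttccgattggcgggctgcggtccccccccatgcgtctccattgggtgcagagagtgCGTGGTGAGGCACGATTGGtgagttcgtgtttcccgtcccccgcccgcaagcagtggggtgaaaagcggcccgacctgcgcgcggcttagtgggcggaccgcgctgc
Dnajc3: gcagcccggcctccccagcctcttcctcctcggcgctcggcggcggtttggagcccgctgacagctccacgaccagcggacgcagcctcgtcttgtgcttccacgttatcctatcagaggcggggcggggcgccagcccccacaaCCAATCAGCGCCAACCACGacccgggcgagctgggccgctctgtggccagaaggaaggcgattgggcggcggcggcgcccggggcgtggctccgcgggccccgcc
Creld2: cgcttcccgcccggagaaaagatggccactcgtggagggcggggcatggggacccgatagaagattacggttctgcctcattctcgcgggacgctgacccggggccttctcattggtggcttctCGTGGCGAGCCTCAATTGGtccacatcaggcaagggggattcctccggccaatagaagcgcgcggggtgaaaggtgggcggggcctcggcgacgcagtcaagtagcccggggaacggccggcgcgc

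The element was present in the windows of only 35 of 27025 genes (0.13%), and in 3 of the 72 chaperone genes with a promoter in the table. It begins 65 bases before the start of Hspa5, 105 before that of Dnajc3, 126 before that of Creld2, and 212 and 107 before that of Hsp90b1. The genes that carry it had unequal values. Beside Hspa5, which rose, Hsp90b1 had 209, 204 and 214 CPM in 15Q, 228, 231 and 197 CPM in 84Q and 257, 217 and 239 CPM in 84Q+IGF1. Its 84Q libraries overlapped with 15Q, and neither 0.07 nor 0.19 on the log2 scale passed (adjusted p = 0.673 and 0.235). Dnajc3, an inhibitor of the translation-arresting kinases PERK and PKR, had log2 fold changes of -0.02 and 0.01. Outside the families the element was also present in Pdia6, 98 bases before its start, which had 0.09 and 0.22 and did not pass (adjusted p = 0.544 and 0.174). The window of Sdf2l1, described below, held no match. Hspa13, on the list of reticulum chaperones below, had no promoter sequence to search.

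Of the 8 genes taken as a list of reticulum chaperones, only Hspa5 passed, beside 4.8% of all genes in 84Q and 3.67% in 84Q+IGF1. Dnajb14, which sits in the reticulum membrane and fell, as described below, is not on that list. Dnajb11, a J protein that recruits Hspa5 to unfolded clients, had 42.3, 44.3 and 42.3 CPM in 15Q, 48.7, 49.1 and 44.3 CPM in 84Q, and 57.6, 46 and 48.5 CPM in 84Q+IGF1, with fold changes on the log2 scale of 0.14 and 0.24 (adjusted p = 0.37 and 0.167). The other 5 genes, Hspa13, Dnajb9, Dnajc1, Dnajc3 and Dnajc10, had values from -0.13 to 0.01 in both comparisons. Over the 8 genes the median log2 fold change was -0.00 in 84Q and 0.01 in 84Q+IGF1, beside -0.00 and -0.01 over all genes. The summed TPM of the 8 was 607 ± 16.1 in 15Q, 623 ± 31.6 in 84Q and 662 ± 27.3 in 84Q+IGF1 (SD, n = 3 each).

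Tcp1, the alpha subunit of the CCT ring, rose with a narrow spread. It lies at chr17:12915701-12925067 on the plus strand (ENSMUSG00000068039.13). Its levels were 85.1, 83.9 and 81.6 CPM in 15Q, 97.4, 94 and 103 CPM in 84Q, and 97.1, 93 and 101 CPM in 84Q+IGF1. The groups did not overlap, and the log2 fold change was 0.23 ± 0.05 in 84Q (SE, adjusted p = 0.0493) and 0.21 ± 0.05 in 84Q+IGF1 (adjusted p = 0.0625). The first did not pass without 15Q replicate 2 or 3 or 84Q replicate 3 (adjusted p from 0.157 to 0.191), and the second without 15Q replicate 2 or 3 or 84Q+IGF1 replicate 1 or 3 (0.129 to 0.235). With Xist as a covariate neither passed (0.11 and 0.14). With both 84Q groups together it was 0.22 (adjusted p = 0.0214), which did not pass without 15Q replicate 3 (0.132). Exons of Acat3 and Mrpl18 on the opposite strand overlap 14.2% of its exon bases, and whether the counting used strand is not given in the sources used here.

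The other CCT subunits had fold changes of the same sign. All 8 genes of the ring, Tcp1 and Cct2 to Cct8 except Cct6b, had positive log2 fold changes, from 0.09 to 0.23 in 84Q and from 0.10 to 0.21 in 84Q+IGF1, with a median of 0.14 in both, beside 49.7% and 48.9% of all genes with a positive value. Exons of the 8 total 2557 to 6778 bases, and over the bins of these lengths the median of all genes in 84Q ran from 0.13 to -0.01, with Cct2 and Cct5 in the shortest bin. The 8 subunits act as a single complex, so they are not 8 separate observations. Only Tcp1 passed. With both 84Q groups together, Cct3 and Cct8 came next, each at an adjusted p of 0.101. Cct8 had 121, 123 and 123 CPM in 15Q, 141, 127 and 142 CPM in 84Q, and 135, 129 and 137 CPM in 84Q+IGF1, so that all 6 libraries of the 84Q groups were above 15Q. Cct6b, a paralogue known from testis, stayed between 0.151 and 0.547 CPM, with a log2 fold change of -0.24 ± 0.53 in 84Q.

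The ring's summed TPM was 825, 855 and 849 in 15Q, 923, 840 and 942 in 84Q, and 915, 878 and 947 in 84Q+IGF1. Replicate 2 of 84Q, the library of the highest choroid plexus markers, fell within the 15Q range, and the other 5 libraries of the 84Q groups lay above it. Without that library, 13 of 81 genes passed with both 84Q groups against 15Q in place of 6, among them Cct3, Cct4, Cct5, Cct7 and Cct8, while the number over all genes became 2304 of 19906 in place of 1886 of 19353. The part of the choroid plexus material in these values was not tested. The ratio of the sum to the 15Q mean was 1.07 for 84Q and 1.08 for 84Q+IGF1 in TPM, and 1.11 for both in CPM.

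**Figure D3:**
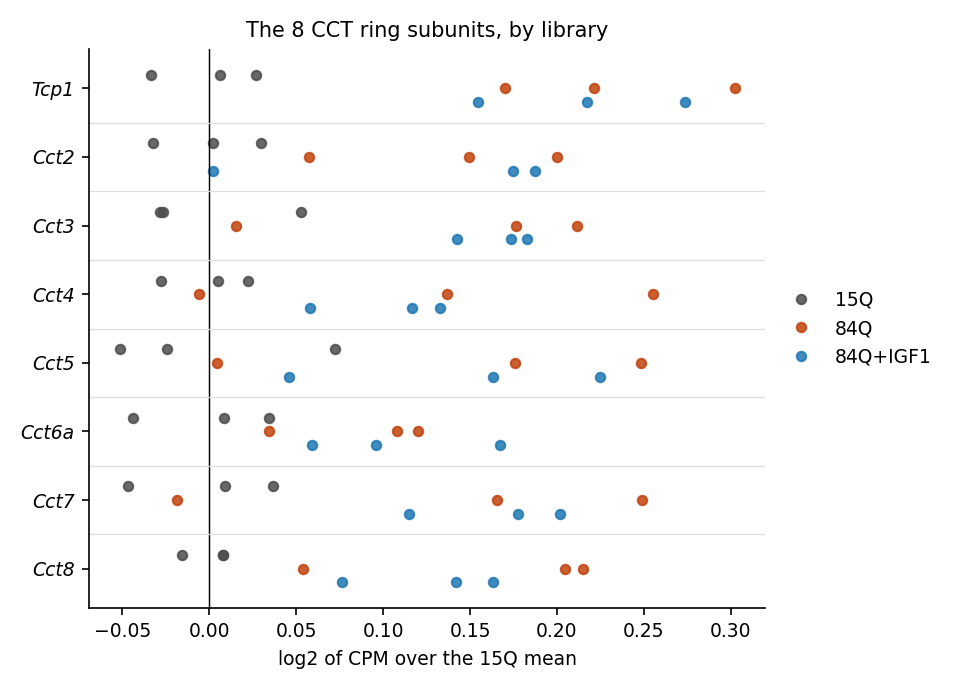
Levels of the 8 subunits of the CCT ring in each library, as log2 CPM relative to the 15Q mean of the same gene, with a point for each library. The lowest 84Q point of each subunit is replicate 2, and for Tcp1 and Cct8, as by a narrow margin for Cct6a, all 6 libraries of the 84Q groups lie above the 3 of 15Q.

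Dnajb14, a J protein anchored in the membrane of the endoplasmic reticulum, fell. It lies at chr3:137867675-137916557 on the plus strand (ENSMUSG00000074212.7). Its levels were 149, 158 and 177 CPM in 15Q, 137, 121 and 109 CPM in 84Q, and 117, 140 and 125 CPM in 84Q+IGF1. All 6 libraries of the 84Q groups lay below the 3 of 15Q. The log2 fold change was -0.40 ± 0.09 in 84Q (SE, adjusted p = 0.0542) and -0.34 ± 0.09 in 84Q+IGF1 (adjusted p = 0.0916). Its exons total 15741 bases, which puts it in the longest of the 5 bins, and with the trend in exon length removed the values were -0.26 (adjusted p = 0.0682) and -0.25 (0.0718). The 84Q value did not pass without 15Q replicate 2 or 3 or 84Q replicate 2 or 3 (adjusted p from 0.107 to 0.229), nor the 84Q+IGF1 value without 15Q replicate 2 or 3, 84Q replicate 2, or 84Q+IGF1 replicate 1 or 3 (0.106 to 0.34).

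Dnajc13, known as RME-8, sorts cargo on endosomes and passed only with both 84Q groups together. It lies at chr9:104151282-104262930 on the minus strand (ENSMUSG00000032560.14). Its levels were 78.9, 81.2 and 90.3 CPM in 15Q, 75.1, 75.5 and 64.6 CPM in 84Q, and 66.5, 76.9 and 74.9 CPM in 84Q+IGF1. The groups did not overlap, with 78.9 CPM the lowest in 15Q and 76.9 CPM the highest in the other libraries. The log2 fold change was -0.21 ± 0.07 (SE, adjusted p = 0.0944), and with the trend in exon length removed it was -0.12 (adjusted p = 0.159), and with Xist as a covariate -0.16 (0.222). It did not pass without any of 15Q replicates 1, 2 and 3, 84Q replicate 3, or 84Q+IGF1 replicates 1 and 3 (adjusted p from 0.104 to 0.425). Hspa4l, an Hsp70 relative of the Hsph type with similarly long exons, had a log2 fold change of -0.20 in 84Q that did not pass (adjusted p = 0.144).

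Dnajc22, a membrane J protein, was the only gene called with a fold of at least 1.5. It was at or under the floor of 3 counts in every library of both 84Q groups. It lies at chr15:99093170-99104737 on the plus strand (ENSMUSG00000038009.7). Its counts were 13, 24 and 33 in 15Q, 1, 2 and 1 in 84Q, and 3, 2 and 1 in 84Q+IGF1, which correspond to 0.483 to 0.596 CPM in 15Q and 0.0343 to 0.129 CPM in the other libraries. The groups did not overlap. Only its 15Q libraries carried it through the filter on low counts, so a difference was built into its being tested. By pooled counts, 70 in 15Q against 4 in 84Q, the level was 9.65-fold lower in 84Q, with an interval of 3.6 to 36.4 that covers counting error only. For 84Q+IGF1, with 6 counts, it was 7.34-fold lower, with an interval of 3.21 to 20.7. The fitted log2 fold changes were -3.17 ± 0.52 (SE, adjusted p = 0.00996) and -2.79 ± 0.48 (adjusted p = 0.0103). They passed without any single library, but these fits share the limit of the filter and are no further support. Without the 3 libraries of high choroid plexus markers, where 15Q is left with 1 library, the values were -3.65 and -2.88 and did not pass (adjusted p = 0.28 and 0.225).

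Markers of other tissues moved with Dnajc22. The summed level of 6 skeletal muscle markers was 12 to 18.7 CPM in 15Q, 1.01 to 2.48 CPM in 84Q and 1.63 to 2.26 CPM in 84Q+IGF1, and 6 of 6 were lower in both comparisons. Those of epidermis summed to 12.1 to 20.6 CPM in 15Q and 4.48 to 6.21 CPM in the other libraries, with 3 of 3 lower. Those of intestine summed to 15.3 to 26 CPM in 15Q and 1 to 2.42 CPM in the others, with 3 of the 3 tested lower. Ckm, Myh1, Myh4, Krt5, Fabp1 and Fabp2 were at 0 in some libraries. Their part in the value of Dnajc22 was not tested.

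**Figure D4:**
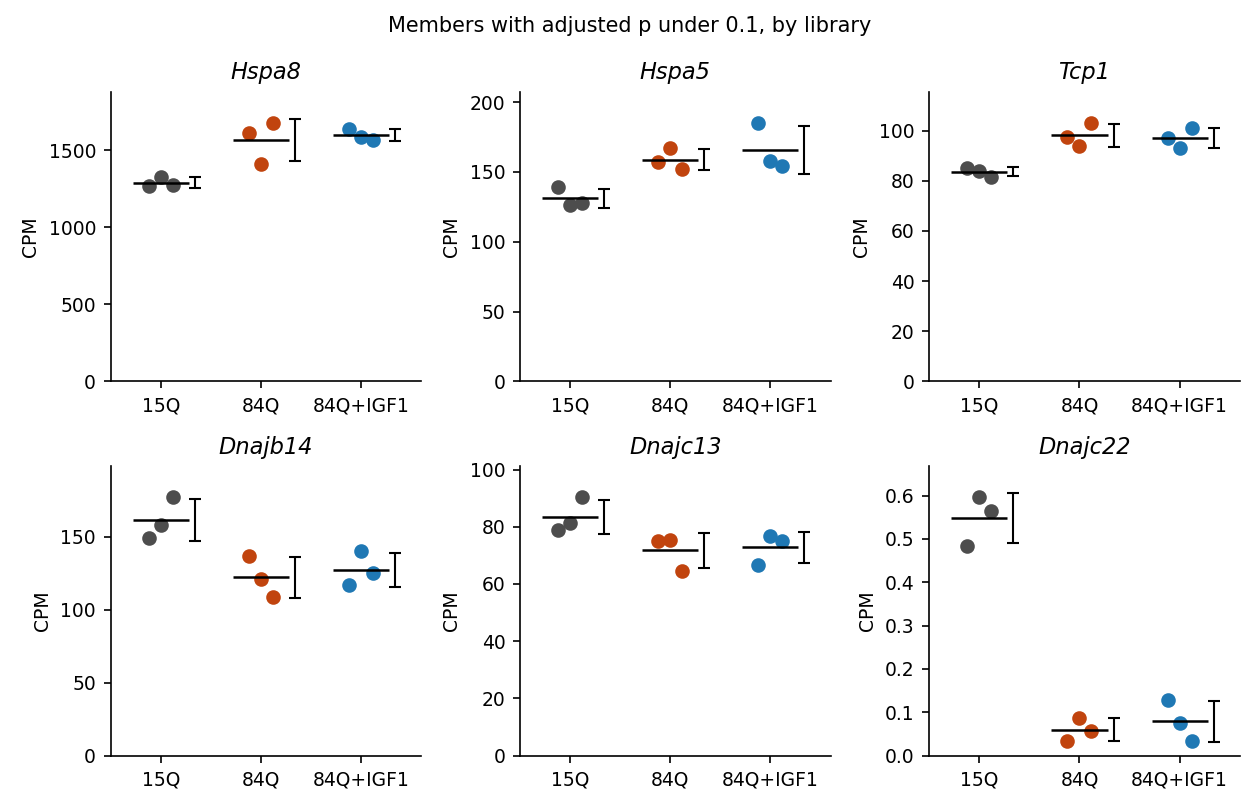
CPM in each of the 9 libraries of the 6 genes that passed in at least 1 comparison against 15Q, with the mean of each group as a line and its SD as a bar. Hspa8, Hspa5 and Tcp1 lie higher in both 84Q groups, and Dnajb14, Dnajc13 and Dnajc22 lie lower, with no overlap with 15Q in any panel.

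Among the targets of HSF1, the constitutive Hspa8 rose and the heat-inducible genes did not pass. Of the 12 taken as such targets, 1 passed in each comparison with 15Q of either 84Q group, beside 4.8% and 3.67% of all genes. The log2 fold change was positive for 7 of the 12 in 84Q and 10 in 84Q+IGF1, beside 49.7% and 48.9% of all genes, and the medians were 0.02 and 0.07. Their summed TPM was 4148 ± 153 in 15Q, 4301 ± 271 in 84Q and 4462 ± 127 in 84Q+IGF1 (SD, n = 3 each). Hspa1a and Hspa1b, the Hsp70 genes that respond most strongly to heat, were low. Hspa1a had 11.2, 15.6 and 16.7 CPM in 15Q, 14.6, 12.1 and 15.7 CPM in 84Q, and 13.4, 19.1 and 12.7 CPM in 84Q+IGF1. Hspa1b had 11.6, 17.8 and 18.5 CPM, 16.1, 13.5 and 17.8 CPM, and 15.3, 20.5 and 14.5 CPM. The groups overlapped for both genes, and the log2 fold changes were -0.05 ± 0.18 and 0.05 ± 0.18 for Hspa1a and -0.03 and 0.06 for Hspa1b.

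The pair is nearly identical in sequence, and reads cannot always be assigned to either. Of their 31-base words, 65.4% in Hspa1a and 68% in Hspa1b occur in other genes, and the ratio of Hspa1b to Hspa1a in TPM stayed between 1.09 and 1.21 in 9 of 9 libraries. The summed level was 30.5 ± 6.7 CPM in 15Q, 29.9 ± 4.02 CPM in 84Q and 31.8 ± 6.79 CPM in 84Q+IGF1 (SD, n = 3 each), so the groups differed by less than the spread between libraries. Their promoters, shown to compare the copies, differ at 3 of 250 bases. Capitals mark the 2-unit heat shock element, GAANNTTC or TTCNNGAA on either strand, a form shorter than the one HSF1 binds best. The windows are chr17:34972157-34972406 for Hspa1a and chr17:34959239-34959488 for Hspa1b, both on the minus strand (GRCm38.p6, RefSeq).
Hspa1a: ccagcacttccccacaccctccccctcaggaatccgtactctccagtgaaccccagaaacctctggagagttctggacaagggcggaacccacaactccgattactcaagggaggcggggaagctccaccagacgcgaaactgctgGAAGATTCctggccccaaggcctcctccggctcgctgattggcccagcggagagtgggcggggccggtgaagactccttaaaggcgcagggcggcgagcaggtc
Hspa1b: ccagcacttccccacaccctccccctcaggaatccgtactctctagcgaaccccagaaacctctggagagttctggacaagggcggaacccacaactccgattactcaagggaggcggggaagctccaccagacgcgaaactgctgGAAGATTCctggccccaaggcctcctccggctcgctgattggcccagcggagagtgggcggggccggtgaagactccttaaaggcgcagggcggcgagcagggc

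The 3-unit element, which is GAANNTTC followed by NNGAA or TTCNNGAA followed by NNTTC, occurred in the windows of 139 of 27025 genes (0.514%) and of 3 of the 72 chaperone genes with a promoter in the table, namely Dnajb6, Hspd1 and Hspe1. The 2-unit form, searched after the values were seen, occurred in 14.5% of all genes and in 17 of the 72. Every match of the 3-unit form also holds the 2-unit form. Among the HSF1 targets, Hspa8, Hsp90aa1 and Hsp90ab1 had no promoter sequence to search, so whether they carry the element is not known here. Hspd1 and Hspe1 lie head to head and share the element, which is shown from the side of Hspd1 at chr1:55087933-55088182 (minus strand), with 2 overlapping matches in capitals. RefSeq gives Hspd1 a pair of starts, and this window precedes the inner one. The window before the outer start, chr1:55088244-55088493, held no match.
Hspd1: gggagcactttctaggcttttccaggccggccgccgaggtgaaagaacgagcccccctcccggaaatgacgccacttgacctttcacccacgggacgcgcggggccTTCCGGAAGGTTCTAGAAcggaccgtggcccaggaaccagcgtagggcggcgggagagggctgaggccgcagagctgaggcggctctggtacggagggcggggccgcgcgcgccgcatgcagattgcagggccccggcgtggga

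Neither gene of this pair passed. Hspd1 had log2 fold changes of 0.08 in 84Q and 0.07 in 84Q+IGF1, and Hspe1 of -0.02 and 0.15. Dnajb6, a strong suppressor of polyglutamine aggregation, had 0.06 and 0.13. Hsp90aa1 and Hsp90ab1 had 0.02 in 84Q, and 0.06 and 0.03 in 84Q+IGF1. For Hsp90aa1 and Hspd1, 51.4% and 50.1% of the words of the exons occur in other genes.

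None of the remaining targets passed. Hsph1 had log2 fold changes of 0.08 and 0.16, Dnaja1 of -0.14 and -0.04, Dnajb1 of 0.15 and 0.13, and Bag3, the exchange factor induced by proteotoxic stress, of -0.11 and -0.12. Hspb1, the best known small heat shock protein, had 4.09, 3.5 and 4.77 CPM in 15Q, 4.8, 4.48 and 5.19 CPM in 84Q, and 6.09, 5.23 and 5.24 CPM in 84Q+IGF1. Its 84Q+IGF1 libraries lay above 15Q, but neither 0.22 nor 0.42 on the log2 scale passed (adjusted p = 0.451 and 0.173). The 95% interval of the latter ran from 0.10 to 0.73, and 52.3% of its words occur in other genes, foremost Hsp25-ps1.

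Of the 8 genes taken as known from other work to act on polyglutamine proteins, 7 were tested and 0 passed in any comparison, beside 4.8% of all genes in 84Q against 15Q, 3.67% in 84Q+IGF1 against 15Q and 9.75% with both groups, so a list of 7 with none is near the background. Dnajb2 had log2 fold changes of 0.11 and 0.11, Dnajc5 of 0.05 and 0.04, and Dnajc7 of 0.04 and 0.14. Hspb8, which pairs with Bag3 in the autophagy of aggregates, had 21.2, 21.9 and 14.5 CPM in 15Q, 11.8, 20.3 and 20.7 CPM in 84Q, and 16.7, 13.4 and 16 CPM in 84Q+IGF1. Its groups overlapped, and its log2 fold changes of -0.13 and -0.32 did not pass. Hspb7 had 0.372, 0.521 and 0.393 CPM in 15Q, 0.276, 0.703 and 0.228 CPM in 84Q, and 0.0429, 0.113 and 0.206 CPM in 84Q+IGF1. The 84Q+IGF1 libraries lay below the rest, with a log2 fold change of -1.75 against 15Q that did not pass (adjusted p = 0.149). Its counts were 10, 21 and 23 in 15Q and 1, 3 and 6 in 84Q+IGF1, the latter around the floor of 3 counts. The 84Q+IGF1 libraries did not help it through the filter on low counts, so part of this difference was built into its being tested.

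Among the nucleotide exchange factors of the Bag family, Bag1 had the lowest adjusted p in 84Q against 15Q. It had 59.7, 59.6 and 50.6 CPM in 15Q, 61.1, 65.7 and 77.5 CPM in 84Q, and 63.2, 62.8 and 61.1 CPM in 84Q+IGF1. The 84Q groups did not overlap with 15Q, and the log2 fold change in 84Q was 0.26 ± 0.09 (SE, adjusted p = 0.139). Bag5 had 43.8, 44.6 and 43.6 CPM in 15Q, and all 6 libraries of the 84Q groups lay above these, at 46.6 to 53.5 CPM. Its log2 fold changes were 0.12 and 0.18 (adjusted p = 0.32 and 0.17). Bag6, the highest of the family, had 0.14 and 0.11.

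With IGF1, no chaperone gene changed beyond the threshold. In 84Q+IGF1 against 84Q, 0 of 81 passed with edgeR's quasi-likelihood test and 0 with DESeq2, beside 0% of all genes with edgeR, and 4 of the 81 had an unadjusted p under 0.05, beside 4.68% of all genes. The libraries of the groups did not overlap for 8 of 81 (9.88%), beside 8.46% of all genes. The fold change was positive for 49 of the 81 (60.5%), beside 48.7%, with a median log2 fold change of 0.02, beside -0.00. Hspa8 had 0.03, with a 95% interval of -0.12 to 0.18, Hspa5 0.07, with -0.10 to 0.23, and Tcp1 -0.02, with -0.13 to 0.10. The intervals leave room for changes of these sizes, and a p that misses the threshold does not show equal levels.

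The smallest p-values of this comparison belonged to Hspb6, Hspb7 and Dnajc28. Hspb6, a small heat shock protein of muscle and vessel walls, had 9.81, 9.93 and 10.3 CPM in 15Q, 10.5, 11.2 and 8.95 CPM in 84Q, and 7.85, 7.49 and 8.6 CPM in 84Q+IGF1. Its 84Q+IGF1 libraries lay below the other 6. The log2 fold change against 84Q was -0.36 ± 0.11 (SE), at an adjusted p of 0.969. Markers of mural and smooth muscle cells summed to 59.5 to 65.7 CPM in 15Q, 49.8 to 51.7 CPM in 84Q and 51.5 to 54.7 CPM in 84Q+IGF1. Markers of oligodendrocytes summed to 3750 to 4047, 3645 to 4658 and 2773 to 3687 CPM in the same order. The part of either cell type in the value was not tested. Hspb7, with 84Q+IGF1 counts around the floor, had -1.66 ± 0.61 and Dnajc28 0.25 ± 0.11, neither of which passed.

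Beside the 88 genes, 38 other genes of the chaperone system were taken as a list, of which 37 were tested. In 84Q against 15Q, 0 of the 37 passed with edgeR's quasi-likelihood test, beside 4.8% of all genes, and 4 passed with DESeq2, which passed 1503 of 23864 genes in all. An unadjusted p under 0.05 was reached by 9 (24.3%), beside 19.4% of all genes. In 84Q+IGF1 against 15Q, 6 rose (16.2%, beside the 1.04% of all genes that rose), which were Sdf2l1, Hyou1, Creld2, Chordc1, Vbp1 and Hsbp1. With both 84Q groups against 15Q, 8 rose (21.6%), beside the 3.64% of all genes that rose. The 6 became 2 with the trend in exon length removed and 0 with Xist as a covariate, and the 8 became 1 and 0. Over all 19353 genes, those that rose went from 202 to 144 and 88 in 84Q+IGF1 against 15Q. With both groups they went from 704 to 360 and 229. Between the 84Q groups, 0 of the 37 passed with edgeR's test and 0 with DESeq2, and 3 (8.11%) had an unadjusted p under 0.05, beside 4.68% of all genes.

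Of the 8 genes of the endoplasmic reticulum among the 37, 4 rose with both 84Q groups, beside the 3.64% of all genes that rose, a grouping made after the values were seen. Pdia4, Pdia6, Serpinh1 and Sil1 did not pass, with log2 fold changes of -0.01 to 0.15. Those that rose were Sdf2l1, a partner of Hspa5 that keeps it bound to clients, Creld2 and Manf, both targets of the unfolded protein response, and Hyou1, a large Hsp70 of the reticulum. Hyou1 passed in 8 and Manf in 6 of 18 alternatives. Exons of Sdf2l1 and Creld2 total 1108 and 1366 bases, lengths of the shortest of the 5 bins, where the median over all genes was 0.11 with both groups. Those of Manf and Hyou1 total 3524 and 7230 bases. With the trend in exon length removed, only 1 gene of the whole list passed with both groups, as given above. Sdf2l1 had 5.09, 4.42 and 4.82 CPM in 15Q, 5.93, 8.22 and 5.53 CPM in 84Q, and 9.27, 7.57 and 6.79 CPM in 84Q+IGF1. The 84Q groups did not overlap with 15Q. The log2 fold change was 0.72 ± 0.17 in 84Q+IGF1 (SE, adjusted p = 0.0542), the only one of the list past 1.5-fold, and it did not pass without 15Q replicate 2 or 3 or 84Q+IGF1 replicate 1 (adjusted p from 0.177 to 0.187). Creld2 had 11.3, 11 and 12.6 CPM, 14.9, 13.2 and 15.7 CPM, and 16.5, 14.5 and 14.2 CPM, again without overlap, and a log2 fold change of 0.37 in 84Q+IGF1 (adjusted p = 0.0981). That value passed in 2 of the 9 fits that left out a library, those without 84Q replicate 2 or 3.

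The other 4 that rose with both groups were Hsbp1, which binds HSF1, Vbp1, a subunit of prefoldin, the complex that passes actin and tubulin to the CCT ring, Stub1, the ubiquitin ligase CHIP that marks Hsp70 clients, and Trap1, the mitochondrial Hsp90. Their log2 fold changes were 0.21 for Hsbp1, 0.33 for Vbp1, 0.27 for Stub1 and 0.13 for Trap1. Their exons total 1861 to 2573 bases, in the shortest of the 5 bins, where the median over all genes was 0.11 with both groups. With the trend in exon length removed the values were 0.10, 0.23, 0.18 and 0.05, of which none passed (adjusted p from 0.112 to 0.554). Trap1 passed in only 4 of its 18 alternatives. The heat shock factors Hsf1, Hsf2 and Hsf4 did not pass in any comparison. Of the 10 co-chaperones of Hsp90, only Chordc1 passed, in 84Q+IGF1 against 15Q. The counts for this list rested on single libraries. Without 15Q replicate 2, 0 of the 37 passed in 84Q, in 84Q+IGF1 and with both groups against 15Q, beside 209, 271 and 425 of 19746 genes. Without 15Q replicate 3 it was again 0 in each, beside 223, 261 and 351 of 19717 genes. In 84Q+IGF1 against 15Q, 0 passed without 84Q+IGF1 replicate 1, beside 341 of 19943 genes. In 84Q against 15Q, 4 passed without 84Q replicate 2, beside 860 of 19906 genes.

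Cryab, a small heat shock protein without an Hspb symbol, had 33.4, 35.2 and 36.9 CPM in 15Q, 51.9, 39.8 and 40.1 CPM in 84Q, and 36, 35.1 and 35.4 CPM in 84Q+IGF1. Its 84Q libraries lay above those of both other groups. The log2 fold changes of 0.32 in 84Q (adjusted p = 0.108) and 0.01 in 84Q+IGF1 did not pass, nor did that of -0.31 between the 84Q groups.

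**Figure D5:**
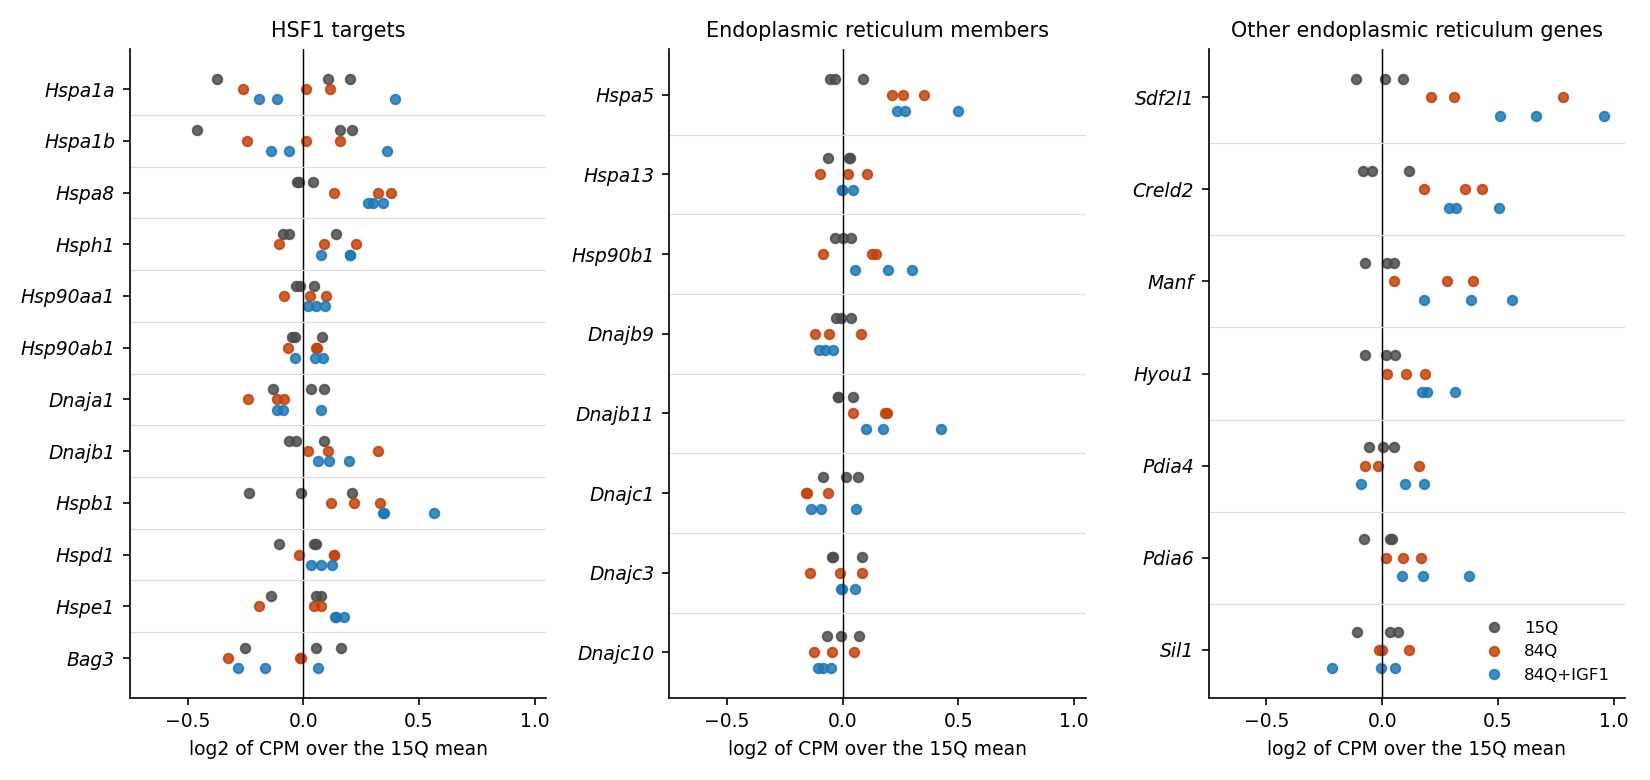
Levels in each library, relative to the 15Q mean, of the HSF1 targets, of the chaperone genes of the endoplasmic reticulum and of other reticulum genes outside the families. The last is a grouping made after the values were seen, and Serpinh1, which did not pass, is not drawn. Most HSF1 targets scatter around the 15Q mean, and Sdf2l1 and Creld2 lie above it in all 6 libraries of the 84Q groups.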

How the data were processed

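Cerebellar RNA was sequenced in 9 libraries (groups as labelled, 3 each) as strand-specific 150-base read pairs. Per the labels and the study's methods, the authors trimmed the reads (Trimmomatic 0.36), aligned them with HISAT2 2.2.0 to mm10 (GRCm38.p6) and counted them with featureCounts, and they deposited unnormalized counts per gene. The annotation and strand setting of the counting are not given in the sources used here. Transcripts of the human transgene were not analysed.

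The counts of 37816 genes were normalized by TMM and filtered with filterByExpr, and 19353 genes were tested with edgeR 4.0.16 in R 4.3.3 (quasi-likelihood test, all 9 libraries in a single fit by group, Benjamini-Hochberg adjustment over all genes tested, two-sided). The test was tried on simulated data with known changes. Standard errors were derived from the F statistic. TPM used the exon union of GENCODE vM21, which gave a position for 37681 genes. Cct6a was kept as protein-coding by RefSeq. A share of 31-base words was computed over the exons of all annotated genes. Intervals of pooled counts cover counting error only. Promoter sequences came from RefSeq, with a window for 72 of the 88 genes.

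The members, the lists of HSF1 targets, reticulum genes, polyglutamine-related genes, other chaperone genes and cell type markers, and the tests were chosen with earlier results of these data known. A further gene of the list of other chaperone genes is not reported here. Genes were named if they passed a test, had the 3 smallest p-values of a comparison, were the 2 highest or the lowest of a family, or stood on a list. Dnajb14 as a wide-ranging gene, Bag1, Bag5, Hspa4, Hspa4l, Hspa9, Cct6b and Cryab were also singled out after their values were seen. Alternatives were DESeq2 1.42.0, other normalization and filters, a replicate block, an Xist covariate, a stricter threshold and leaving out each library. The exon-length offset and the fits without the 3 libraries of high choroid plexus markers were added after seeing the data. Same-numbered libraries did not deviate together (correlations from -0.31 to 0.08), so the numbers were not taken as pairs. No library duplicated another of its group, with a chi-square per gene of 8.70 to 14.5.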

Additional observations from a re-analysis of the deposited data

How the results depend on the processing

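Depth limited the low genes, since a floor of 3 counts corresponds to 0.0513 to 0.171 CPM. With 3 libraries per group, most calls near the threshold depended on single libraries, and no log2 fold change of a chaperone gene that passed changed its sign under the alternatives run. The sums over a group with no test did: the ratio of 84Q to 15Q for Hsp90 was 0.982 in TPM and 1.02 in CPM, and for the polyglutamine list 0.989 and 1.03. The cause of the changes below was not tested, except that a stricter threshold and fewer libraries leave less to pass by construction. Dnajc22 passed under every alternative except 1 in each 84Q group against 15Q. That was the fit without the 3 libraries of high choroid plexus markers, which leaves 15Q with 1 library that is assumed to vary like the others. Only its 15Q libraries carried Dnajc22 through the filter on low counts, so passing in refits of the same counts is no further support for it.

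The number of chaperone genes at an adjusted p under 0.1 in 84Q against 15Q, 5, became 8 with DESeq2, 8 without a filter on low counts, 3 with Xist as a covariate, 2 at an adjusted p under 0.05, 0 without the 3 libraries of high choroid plexus markers, and 1 to 7 without a single library. In 84Q+IGF1 against 15Q, 5 became 9 without the filter, 3 at an adjusted p under 0.05, 0 without those 3 libraries, and 1 to 6 without a single library. With both 84Q groups, 6 became 1 without those 3 libraries and 2 to 13 without a single library. Called at a fold of at least 1.5, 1 gene in 84Q against 15Q became 0 without those 3 libraries and stayed 1 without any single library. In 84Q+IGF1 against 15Q, 1 became 2 without the filter, 2 with only the compared groups in the fit, 0 without those 3 libraries, and 1 to 2 without a single library, where Hspb7 joined without 84Q replicate 2. With both groups it was 1 to 2. Between the 84Q groups it was 0 under each alternative run, although over all genes DESeq2 passed 7 and the fit without the filter 265. The numbers over all genes at an adjusted p under 0.1 moved too. In 84Q against 15Q, 928 of 19353 became 1503 of 23864 with DESeq2, 2457 of 37816 without the filter, 432 of 19353 with Xist and 209 to 1363 without a single library. In 84Q+IGF1 against 15Q, 711 became 2364 without the filter and 261 to 1098 without a single library. With both groups, 1886 became 351 to 2304 without a single library.

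The replicate block, fitted although the numbers do not pair the libraries, gave 1 chaperone gene (Dnajc22) in 84Q against 15Q, 2 (Dnajc22 and Hspa5) in 84Q+IGF1 against 15Q and 5 with both groups. Over all 19353 genes it gave 354, 325 and 873 in the same order, in place of 928, 711 and 1886. For the list of other chaperone genes, the replicate block gave 0, 1 and 4 in these comparisons.

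For that list, the 0 genes in 84Q against 15Q became 4 with DESeq2, 1 with DESeq2 size factors, 4 without the filter, 1 with robust shrinkage, 1 with Xist and 0 to 4 without a single library. The 6 in 84Q+IGF1 against 15Q became 10 without the filter, 2 with the offset, 0 without the 3 libraries, 0 with Xist, 0 at an adjusted p under 0.05 and 0 to 8 without a single library. The 8 with both groups became 1 with the offset, 0 without the 3 libraries, 0 with Xist, 2 at an adjusted p under 0.05 and 0 to 9 without a single library. Between the 84Q groups, 1 gene, Cryab, passed without the filter, beside 265 of 37816 genes in all. Over all 19353 genes, 932 passed with DESeq2 size factors and 1027 with robust shrinkage in 84Q against 15Q. With the offset, 756 passed in 84Q+IGF1 against 15Q and 1485 with both groups, and with Xist 433 and 836.

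In CPM in place of TPM, the ratio to 15Q of summed levels became 1.11 in 84Q and 1.11 in 84Q+IGF1 for the Cct genes with Tcp1 and for the CCT ring alone, 1.01 for Dnajb in 84Q+IGF1, and, in 84Q, 0.997 for Dnajc, 1.02 for Hsp90, 1.08 for HSF1 targets and 1.06 for reticulum genes. For the polyglutamine-related list it became 1.03 in 84Q and 1.04 in 84Q+IGF1.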
